A study of Mus musculus with 3 samples.

Results

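The genes described here are 10 members of one signalling axis: the Id family (Id1, Id2, Id3 and Id4), the ligand gene Bmp4, the receptor genes Bmpr1a and Bmpr2, and the inhibitor genes Smad6, Smad7 and Bambi. They were chosen by symbol from a gene table of 24401 loci, each symbol had 1 locus there, and 8 of the 10 averaged 1 FPKM or more (FPKM, the count of sequenced fragments of a gene scaled for transcript length and library depth). All cultures were C2C12, a mouse myoblast line that fuses into myotubes. Differentiation took 72 hours (2% horse serum, insulin at 1 µg/ml, in DMEM), and treatment followed for 24 hours. The resveratrol culture received S2-013 conditioned media with 50 µM resveratrol, a plant polyphenol. The conditioned media culture received medium kept for 24 hours on S2-013 cells, a human pancreatic cancer line, and the control culture received DMEM. Each group is 1 library, so no value has a replicate error and no test of a condition was possible. Resveratrol without conditioned media was not analysed here.

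Bone morphogenetic proteins (BMPs) are secreted ligands that assemble type I and type II receptor kinases, which phosphorylate the BMP-activated Smads. With the common Smad4 these enter the nucleus and switch on target genes, of which the Id genes are the textbook examples. Id proteins have a helix-loop-helix domain but no basic region to hold DNA: they bind E proteins and keep them from pairing with myogenic factors such as MyoD, and so hold back myoblast differentiation. Smad6, Smad7 and the pseudoreceptor Bambi act as brakes on the receptors.

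The Id genes encode near relatives, and their coding sequences are shown where they are most alike, because this is where reads of one could be taken for another. The stretch encodes part of the helix-loop-helix domain. In mm10 it lies at chr2:152736590-152736637 on the plus strand for Id1, chr12:25095783-25095830 on the minus strand for Id2, chr4:136144074-136144121 on the plus strand for Id3 and chr13:48261765-48261812 on the plus strand for Id4, each within 1 exon of GENCODE M21. Capitals mark the 35 of 48 bases that are the same in all 4 genes.
Id1: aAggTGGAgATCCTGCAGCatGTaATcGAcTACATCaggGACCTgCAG
Id2: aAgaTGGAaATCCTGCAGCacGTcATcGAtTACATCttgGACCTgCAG
Id3: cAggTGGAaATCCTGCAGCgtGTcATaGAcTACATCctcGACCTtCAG
Id4: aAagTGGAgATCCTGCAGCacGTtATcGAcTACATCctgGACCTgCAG
Between pairs, 39 to 43 of these 48 bases were the same, and the longest run shared by any pair of whole coding sequences was 17 bases, between Id1 and Id4. At 95% identity over 50 bases or more, no other gene's transcript in GENCODE M21 matched an Id1, Id2 or Id3 transcript. Id4 matched only A330033J07Rik and Gm49291, which overlap it on the opposite strand.

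Id3 was the Id gene with the widest range. It lies on chromosome 4, positions 136143822 to 136145392 of mm10, and stood at 48.7 FPKM with resveratrol, 22.4 FPKM in conditioned media and 14.0 FPKM in control. It was highest with resveratrol, lowest in control, and between them in conditioned media. Ratios are of FPKM + 1 on a log2 scale, so the added 1 shrinks them where levels are low. The ratio was 1.09 for resveratrol over conditioned media, 0.65 for conditioned media over control and 1.73 for resveratrol over control. Among the 11858 loci with a mean of 1 FPKM or more over the 3 libraries, its ratio of resveratrol over control was number 76 from the highest. The authors' deposited table calls Id3 higher in all of these comparisons, each at its smallest p of 5e-05 (q = 0.000148). Cuffdiff, the tool behind that table, compared 1 library with 1 library, so its p-values speak of these libraries and not of the conditions.

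Id1, on chromosome 2 at positions 152736251 to 152737410, followed another course. Its values were 31.6 FPKM with resveratrol, 13.6 FPKM in conditioned media and 16.3 FPKM in control. The resveratrol library was high, and the other 2 lay close together. The log2 ratio was 1.16 for resveratrol over conditioned media, number 100 from the highest among all loci, and 0.91 for resveratrol over control, or 1.10 with equal library totals. For conditioned media over control it was -0.25, which the authors' deposited table does not call (q = 0.106). The log2 fold change of that table divided by its test statistic, which would be its standard error if the statistic is a fold change over its error, was 0.28 for this difference, about as large as the authors' log2 fold change of -0.26. For resveratrol over conditioned media the same quotient was 0.25 for Id1, beside a log2 fold change of 1.22 in the authors' deposited table. How Cuffdiff modelled spread from 1 library per group is unknown. The quotient is therefore not taken as a measure of the spread between cultures, for which no replicates exist.

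Id2, on chromosome 12 at positions 25093799 to 25096092, was the member with its highest value in control. It stood at 17.5 FPKM with resveratrol, 15.3 FPKM in conditioned media and 32.4 FPKM in control, so both conditioned media libraries were low. The log2 ratio of conditioned media over control was -1.03, number 79 from the lowest of the 11858 loci, and that of resveratrol over control was -0.85. Resveratrol over conditioned media gave 0.19, which the authors' deposited table does not call (q = 0.182). After FPKM were scaled to equal library totals, Id2 stayed lower in conditioned media than in control but short of the size rule used below, at a log2 ratio of -0.85.

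Id4 was listed at 0.151 FPKM with resveratrol, 0.161 FPKM in conditioned media and 0 in control, and the authors did not test it. Its locus of 220 kb also covers the antisense gene A330033J07Rik, listed at 0 in each library. No ratio is given for Id4 at this level.

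Taken over the family, the sum of the 4 Id genes was 98.0 FPKM with resveratrol, 51.4 FPKM in conditioned media and 62.6 FPKM in control. The composition of this sum differed between libraries. Id2 made up 17.9% of it with resveratrol, 29.7% in conditioned media and 51.7% in control, whereas Id3 made up 49.7% with resveratrol, 43.6% in conditioned media and 22.3% in control. Id1 held 32.2% with resveratrol, 26.4% in conditioned media and 26.0% in control. Id3 over Id2 was thus 2.78 with resveratrol, 1.47 in conditioned media and 0.431 in control. These shares compare genes within a library and do not depend on how libraries were scaled to each other. In RNA from a whole culture, fewer cells of a type and less RNA per cell cannot be told apart.

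**Figure D1:**
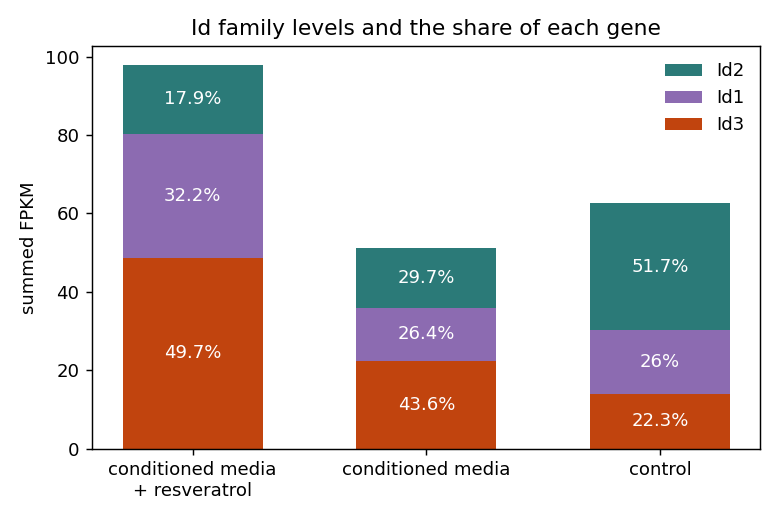
Summed FPKM of Id1, Id2 and Id3 (y axis) in the 3 libraries (x axis), stacked by gene, with each gene's percentage of the Id total printed in its segment; Id4 is too low to draw. Id2 is the largest segment in control (51.7%), and Id3 is the largest in both conditioned media libraries (49.7% with resveratrol and 43.6% without).

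**Figure D2:**
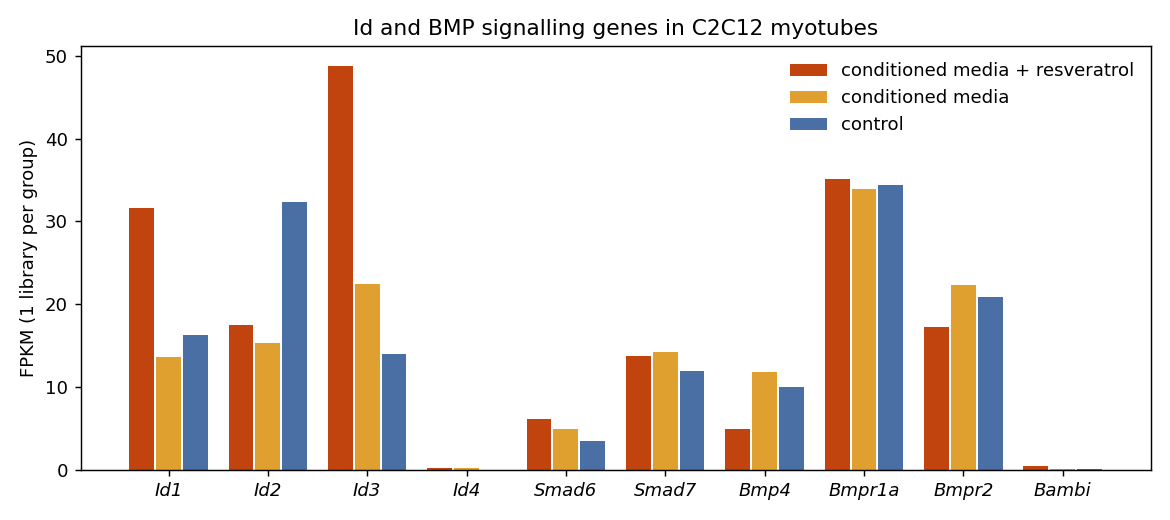
FPKM (y axis) of the 10 genes (x axis) in the library with resveratrol, the conditioned media library and the control library, 1 bar per library and no error bars, since each group is 1 library. Id3 reaches 48.7 FPKM with resveratrol, Id2 is highest in control at 32.4 FPKM, Bmp4 is lowest with resveratrol at 4.87 FPKM, and Bmpr1a lies between 33.9 and 35.1 FPKM throughout.

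Bmp4, which encodes a ligand of this pathway, went the other way from Id1 and Id3 with resveratrol. It stood at 4.87 FPKM with resveratrol, 11.8 FPKM in conditioned media and 10.0 FPKM in control. Only the resveratrol library was low. The log2 ratio was -1.13 for resveratrol over conditioned media, number 446 from the lowest of the 11858 loci, and -0.91 for resveratrol over control. Conditioned media over control gave 0.22, which the authors' deposited table does not call (q = 0.0623). With equal library totals, resveratrol over conditioned media was -1.14. Bmp4 lies on chromosome 14, positions 46383520 to 46390669 in GENCODE M21, and Gm15217 and Gm15222 overlap it on the opposite strand. Gm15217 shares its locus in the deposited table and was listed at 0. The sources used here do not say whether reads were counted by strand.

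Bmp4 was the pathway's only ligand gene above 5 FPKM on average. The 250 bases before its RefSeq start are shown. Like the windows of Smad6 and Id4, they lie outside their own gene as GENCODE M21 bounds it. They lie at chr14:46390670-46390919 on the minus strand (RefSeq, GRCm38.p6, the assembly of mm10), and capitals mark matches to the E-box CANNTG, the sequence that E proteins and myogenic factors bind.
Bmp4: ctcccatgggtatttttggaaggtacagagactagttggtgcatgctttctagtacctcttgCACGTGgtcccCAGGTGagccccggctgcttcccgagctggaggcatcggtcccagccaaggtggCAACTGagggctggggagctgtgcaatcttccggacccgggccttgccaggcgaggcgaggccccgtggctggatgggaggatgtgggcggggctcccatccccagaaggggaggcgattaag
The window holds CANNTG 3 times, and 66.2% of all 32851 promoters in the same table hold it at least once, so such matches are common. Of the 7 member promoters in this set, Id2 and Bmp4 hold it. The windows of Id2, Id3, Bmpr1a and Bmpr2 lie inside these genes as GENCODE M21 bounds them. They are therefore not upstream of every annotated start. Other motifs searched were GGCGCC, a core of Smad-bound BMP elements, GTCTAGAC (the Smad box), TGACGTCA (the cyclic AMP element) and TTCNNNGAA (the STAT element). Each of the 5 motifs reads the same on both strands apart from its N positions. GGCGCC was in the windows of Id2, Id4, Bmpr1a and Bmpr2, against 9.59% of all promoters. These windows held 62.8% to 78.8% G and C, and those without it (Id3, Smad6 and Bmp4) held 62.8% to 66.8%. The G and C content of all promoters was not computed, and its part in these matches was not tested. The other 3 motifs were in none of the 7 windows, and were held by 0.167%, 1.55% and 7.02% of all promoters. A match describes letters and is not evidence of binding.

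The receptor genes among the members, Bmpr1a and Bmpr2, differed far less than Bmp4 in the resveratrol comparisons. This does not hold for every receptor gene: Bmpr1b, described below, had a log2 ratio of -1.19 for resveratrol over conditioned media. Bmpr1a, a type I receptor, stood at 35.1 FPKM with resveratrol, 33.9 FPKM in conditioned media and 34.4 FPKM in control. The libraries lay close together, and the authors' deposited table calls none of the comparisons. Its ratio of conditioned media over control, -0.02, turned to 0.17 with equal library totals. Bmpr2, a type II receptor, was at 17.2 FPKM with resveratrol, 22.3 FPKM in conditioned media and 20.8 FPKM in control, lowest with resveratrol. Its log2 ratio was -0.36 for resveratrol over conditioned media and -0.26 for resveratrol over control. The authors' deposited table calls both (q = 0.000148), and it also calls the log2 fold change of 0.10 for conditioned media over control (q = 0.0175), which shows how small a difference between libraries it calls. Bmpr1a over Bmpr2 was 2.04 with resveratrol, 1.52 in conditioned media and 1.65 in control.

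Of the inhibitors, Smad6, which acts mainly on BMP receptors, stood at 6.08 FPKM with resveratrol, 4.85 FPKM in conditioned media and 3.49 FPKM in control. The order of the libraries was that of Id3, at lower levels. Its log2 ratio was 0.27 for resveratrol over conditioned media, 0.38 for conditioned media over control and 0.65 for resveratrol over control. The authors' deposited table calls only the last (q = 0.0153). The quotient of fold change and statistic was 0.59 for this comparison of Smad6, the widest of the called members there. Smad7, which restrains both TGF-β and BMP receptors, was at 13.7 FPKM with resveratrol, 14.2 FPKM in conditioned media and 11.9 FPKM in control. The authors' deposited table calls Smad7 in no comparison. Bambi was at 0.407 FPKM with resveratrol, 0.0961 FPKM in conditioned media and 0.131 FPKM in control, below 1 FPKM in each library and untested by the authors.

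In level, Id3 was highest of the 10 genes with resveratrol, Bmpr1a was highest in the other 2 libraries, and Bambi and Id4 were at the bottom in all of them. In control the order above 10 FPKM was Bmpr1a, Id2, Bmpr2, Id1, Id3, Smad7 and Bmp4. Which neighbours in that order differ could not be judged, because no spread between cultures exists.

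Counted against a fixed size (an absolute log2 ratio of 1 or more at a mean of 1 FPKM or more), resveratrol over conditioned media had 3 of the 8 measurable members past it. Id1 and Id3 were higher and Bmp4 was lower. Among all 11858 loci, 6.5% were past it in that comparison, 1.53% higher and 4.97% lower. For conditioned media over control it was 1 of 8 members, Id2, which was lower, beside 2.73% of all loci, 1.98% higher and 0.751% lower. For resveratrol over control it was 1 of 8, Id3, which was higher, beside 8.85% of all loci, 3.6% higher and 5.25% lower. At a size of 0.5, 3 of 8 members were past it for resveratrol over conditioned media (26.3% of all loci), 2 for conditioned media over control (17.2%) and 5 for resveratrol over control (32.1%). The comparisons share libraries, so their values are set side by side and not counted as separate evidence. The median log2 ratio of the 8 members was 0.12 for resveratrol over conditioned media (0.03 for all loci), 0.16 for conditioned media over control (-0.01 for all loci) and 0.11 for resveratrol over control (0.00 for all loci). The authors' deposited table calls 2 of the 8 higher and 2 lower for resveratrol over conditioned media, where it calls 63.6% of tested loci, 34.1% higher and 29.5% lower. For conditioned media over control the authors' deposited table calls 2 higher and 1 lower, beside 55.7% of loci, 25.8% higher and 29.9% lower. For resveratrol over control the authors' deposited table calls 3 higher and 3 lower, beside 68.2% of loci, 34.1% higher and 34.1% lower. By these calls 4 of 8 members were called in the first comparison, 3 of 8 in the second and 6 of 8 for resveratrol over control. A set of 8 genes is too small to tell these shares from those of all loci.

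**Figure D3:**
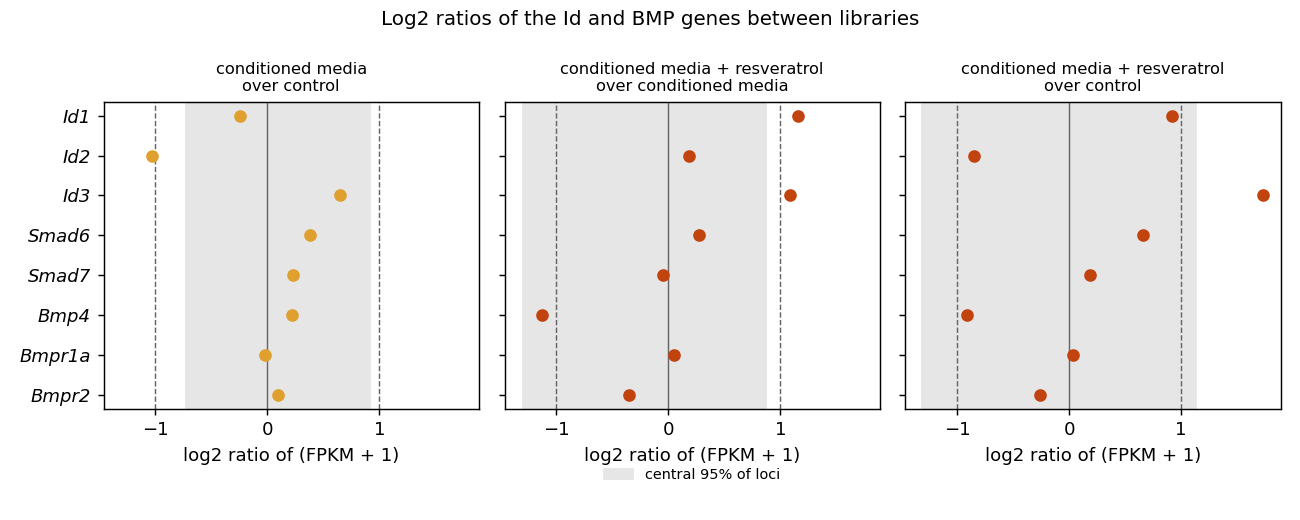
Log2 ratio of (FPKM + 1) (x axis) of the 8 genes with a mean of 1 FPKM or more (y axis) in the 3 comparisons, with dashed lines at -1 and 1 and a grey band holding the central 95% of all 11858 loci. Id2 lies below the band for conditioned media over control (-1.03), and Id1 and Id3 lie above it for resveratrol over conditioned media (1.16 and 1.09), while Bmp4 at -1.13 stays inside it.

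Of the 3 genes for E proteins, the partners that Id proteins bind, 0 passed the size rule in any comparison, and all 3 had their lowest level with resveratrol. Tcf3 stood at 19.4 FPKM with resveratrol, 31.2 FPKM in conditioned media and 26.9 FPKM in control. Tcf4 stood at 26.3 FPKM with resveratrol, 39.9 FPKM in conditioned media and 40.0 FPKM in control. Tcf12 stood at 28.9 FPKM with resveratrol, 41.4 FPKM in conditioned media and 41.8 FPKM in control. The log2 ratio of resveratrol over conditioned media was -0.66 for Tcf3, -0.59 for Tcf4 and -0.50 for Tcf12, and the authors' deposited table calls all 3, beside the 29.5% of loci it calls lower there. For conditioned media over control, Tcf4 and Tcf12 had ratios of -0.00 and -0.01, which became 0.19 and 0.18 with equal library totals. The 3 E protein genes summed to 74.6 FPKM with resveratrol, 113 FPKM in conditioned media and 109 FPKM in control. The Id sum given above exceeded the E protein sum in the resveratrol library alone. These are sums of RNA levels, and the balance of the proteins was not measured.

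Among the myogenic factors, Myod1 stood at 51.7 FPKM with resveratrol, 28.2 FPKM in conditioned media and 48.2 FPKM in control. Myog, which drives late differentiation, stood at 596 FPKM with resveratrol, 313 FPKM in conditioned media and 384 FPKM in control. Myog was highest with resveratrol, whereas Myod1 was about as high in control (log2 ratio of resveratrol over control 0.10, not called in the authors' deposited table) and low in conditioned media. Myf5, a gene of undifferentiated myoblasts, was past the size rule in the other direction, at 2.69 FPKM with resveratrol, 9.23 FPKM in conditioned media and 10.9 FPKM in control.

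The labels call the cells myoblasts, and myotube markers were strongly present. All 8 listed myotube markers were above 10 FPKM in each library, with a summed level of 4547 FPKM with resveratrol, 3096 FPKM in conditioned media and 3290 FPKM in control. Acta1, skeletal muscle actin, contributed most, at 2273 FPKM with resveratrol, 1496 FPKM in conditioned media and 1568 FPKM in control. Ckm, muscle creatine kinase, was instead lowest with resveratrol, at 43.2 FPKM with resveratrol, 56.3 FPKM in conditioned media and 60.8 FPKM in control. Myh3, embryonic myosin, was at 192 FPKM with resveratrol, 158 FPKM in conditioned media and 184 FPKM in control. The 4 markers of myoblasts and reserve cells summed to 235 FPKM with resveratrol, 192 FPKM in conditioned media and 148 FPKM in control. Sdc4 gave most of this, at 174 FPKM with resveratrol, 117 FPKM in conditioned media and 80.6 FPKM in control, and passed the size rule for resveratrol over control (log2 ratio 1.10). Myf5, also of this list, passed it as lower in both resveratrol comparisons, and Pax7 was at 0.271 FPKM with resveratrol, 0.699 FPKM in conditioned media and 1.04 FPKM in control. The 4 fibroblast markers summed to 537 FPKM with resveratrol, 1070 FPKM in conditioned media and 909 FPKM in control. Col1a1, a collagen that myoblasts can also make, gave nearly all of it, at 527 FPKM with resveratrol, 1056 FPKM in conditioned media and 899 FPKM in control, and lay at the size rule as lower for resveratrol over conditioned media. Pdgfra was at 6.98 FPKM with resveratrol, 9.86 FPKM in conditioned media and 4.98 FPKM in control. Its log2 ratio of conditioned media over control was 0.86, or 1.03 with equal library totals. Unlike Col1a1, Pdgfra was higher with resveratrol than in control. Dpt was at 2.98 FPKM with resveratrol, 3.78 FPKM in conditioned media and 4.39 FPKM in control. Thy1 was below 0.1 FPKM in each library. These marker levels differed between the same libraries as the Id genes and Bmp4, and their part in those differences was not tested. Markers of adipocytes, osteoblasts and endothelial cells summed to less than 1 FPKM each in every library, with Ibsp and Tie1 at 0. Of the leukocyte markers, Ptprc, Adgre1 and Cd3e were at 0 and Cd68 was at 1.82 FPKM with resveratrol, 1.49 FPKM in conditioned media and 1.02 FPKM in control.

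The wider pathway was read from 9 lists of Id partners and BMP pathway genes. They held 70 other genes, of which 47 had a mean of 1 FPKM or more. Past the size rule were 0 higher and 3 lower for resveratrol over conditioned media (6.38% of the 47), none for conditioned media over control, and 1 higher and 4 lower for resveratrol over control (10.6%). With equal library totals, Bmpr1b and Grem1 were short of it for resveratrol over control, at -0.99 and -0.94. The shares for both resveratrol comparisons lie near those of all loci given above. For conditioned media over control, 0 of 47 stands beside 2.73% of all loci, and 47 genes are too few to tell these apart. The median log2 ratio of the 47 genes was 0.12 for resveratrol over conditioned media, -0.01 for conditioned media over control and 0.10 for resveratrol over control.

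Ligands were scarce. Of 13 BMP and GDF ligand genes, Bmp4 and Gdf5 alone averaged 1 FPKM or more, and Bmp3 and Gdf2 were at 0 in each library. Gdf5, a ligand of joint and tendon development, stood at 2.33 FPKM with resveratrol, 0.865 FPKM in conditioned media and 0.886 FPKM in control, the opposite order to Bmp4. The authors did not test it. The next, Bmp8a, was at 0.470 FPKM with resveratrol, 0.236 FPKM in conditioned media and 0.234 FPKM in control.

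Of 12 receptor and coreceptor genes, 11 averaged 1 FPKM or more. Bmpr1b, another BMP type I receptor, was low and was lower with resveratrol. It was at 0.572 FPKM with resveratrol, 2.57 FPKM in conditioned media and 2.39 FPKM in control (log2 ratio of resveratrol over conditioned media -1.19). Tgfbr3, the coreceptor betaglycan, was higher, at 10.7 FPKM with resveratrol, 5.39 FPKM in conditioned media and 3.96 FPKM in control (log2 ratio of resveratrol over control 1.24). The most abundant was Hfe2, which encodes hemojuvelin, a BMP coreceptor made in skeletal muscle, at 63.9 FPKM with resveratrol, 39.1 FPKM in conditioned media and 46.4 FPKM in control. Acvr1, a further type I receptor, was at 31.1 FPKM with resveratrol, 32.4 FPKM in conditioned media and 24.7 FPKM in control.

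The BMP-activated Smads did not share a direction. With resveratrol, Smad1 was at 23.2 FPKM, against 19.7 FPKM in conditioned media and 16.1 FPKM in control. Smad5 was at 14.4 FPKM with resveratrol, 21.6 FPKM in conditioned media and 21.9 FPKM in control. The common Smad4 was at 33.7 FPKM with resveratrol, 27.6 FPKM in conditioned media and 29.7 FPKM in control. The Smads of activin and TGF-β, Smad2 and Smad3, had log2 ratios of -0.24 and -0.30 for resveratrol over conditioned media.

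Secreted antagonists bind BMPs outside the cell. Grem1, gremlin, was at 41.5 FPKM with resveratrol, 46.6 FPKM in conditioned media and 92.4 FPKM in control. Like Id2, it was high in control and low in both conditioned media libraries. Its log2 ratio of conditioned media over control was -0.97, just short of the size rule, and that of resveratrol over control was -1.13, or -0.94 with equal library totals. Bmper, which binds BMPs and modulates their activity, was at 6.87 FPKM with resveratrol, 19.3 FPKM in conditioned media and 24.3 FPKM in control. Its log2 ratio was -1.37 for resveratrol over conditioned media and -1.68 for resveratrol over control. Nbl1, of the DAN family, was at 69.2 FPKM with resveratrol, 34.6 FPKM in conditioned media and 40.1 FPKM in control, with a log2 ratio of resveratrol over conditioned media of 0.98. Fst, follistatin, which binds activins and also BMPs, was at 44.5 FPKM with resveratrol, 35.6 FPKM in conditioned media and 39.3 FPKM in control. Of the 10 antagonist genes at 1 FPKM or more, 5 had ratios above 0 and 5 below 0 for resveratrol over conditioned media.

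Among the intracellular inhibitors, 8 of 12 had ratios above 0 for resveratrol over conditioned media and 0 passed the size rule. The 3 most abundant were Fkbp1a, which holds type I receptors inactive, Pmepa1, a TGF-β target that restrains Smad signalling, and Tob1. Fkbp1a was at 107 FPKM with resveratrol, 135 FPKM in conditioned media and 170 FPKM in control. Pmepa1 was at 72.4 FPKM with resveratrol, 60.2 FPKM in conditioned media and 91.4 FPKM in control. Tob1 was at 72.5 FPKM with resveratrol, 58.0 FPKM in conditioned media and 67.8 FPKM in control.

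Other genes that BMP is known to induce had no shared direction. Of 12 listed, 6 averaged 1 FPKM or more, of which 3 had ratios above 0 and 3 below 0 for resveratrol over conditioned media, and 0 passed the size rule. Atoh8, a BMP-induced helix-loop-helix factor, was at 3.24 FPKM with resveratrol, 3.89 FPKM in conditioned media and 3.86 FPKM in control. Runx2, an osteogenic factor, was at 8.12 FPKM with resveratrol, 11.8 FPKM in conditioned media and 13.3 FPKM in control. Dlx3 was at 2.95 FPKM with resveratrol, 2.31 FPKM in conditioned media and 2.87 FPKM in control. Msx1, a homeobox gene, had the order of Id3, at 2.03 FPKM with resveratrol, 1.43 FPKM in conditioned media and 1.05 FPKM in control, and the authors did not test it.

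**Figure D4:**
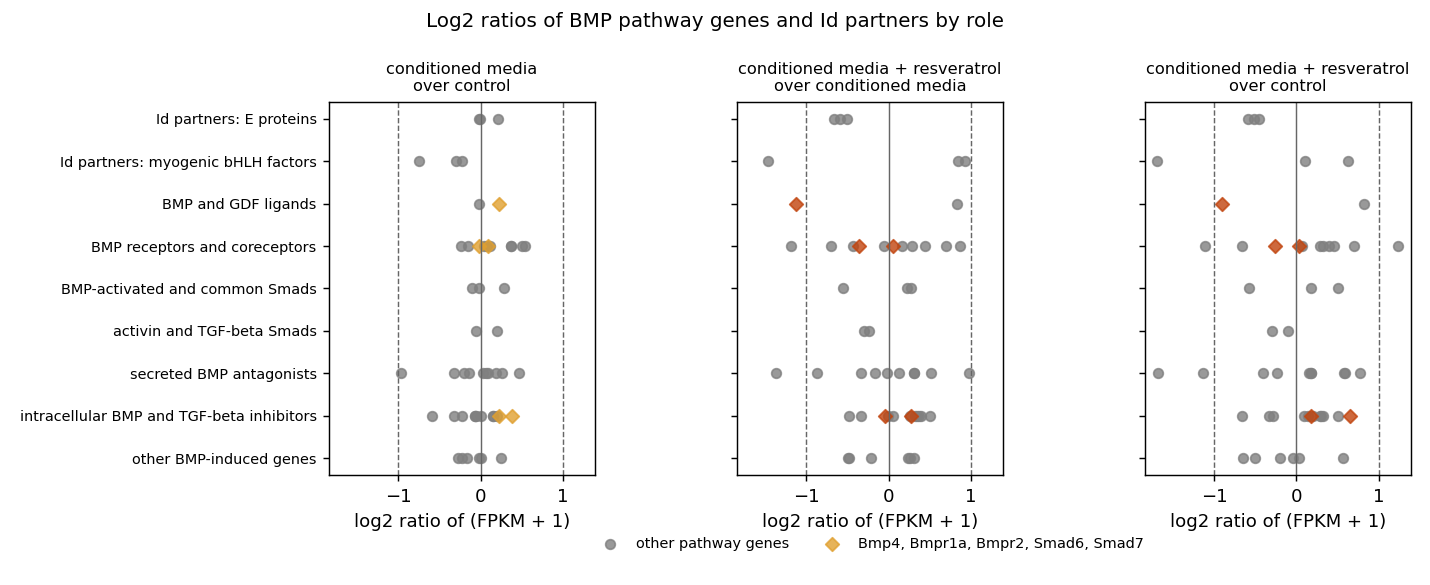
Log2 ratio of (FPKM + 1) (x axis) of the genes with a mean of 1 FPKM or more in 9 lists of Id partners and BMP pathway genes (y axis), in the 3 comparisons; diamonds are Bmp4, Bmpr1a, Bmpr2, Smad6 and Smad7, circles the other genes, and dashed lines mark -1 and 1. No gene passes -1 or 1 for conditioned media over control, and for resveratrol over conditioned media the genes below -1 are Bmp4 (-1.13), Bmpr1b (-1.19), Bmper (-1.37) and Myf5 (-1.47).

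Genes with the course most like each Id gene were sought among 8374 protein-coding genes with a mean of 5 FPKM or more, by the distance between their log2 differences over the 3 libraries. Nearest to Id1 were Brd2, a bromodomain protein gene, at 106 FPKM with resveratrol, 47.5 FPKM in conditioned media and 56.8 FPKM in control (distance 0.026), then Sirt1 (0.059) and Unc13d (0.062). Nearest to Id2 were Grwd1 at 5.56 FPKM with resveratrol, 4.76 FPKM in conditioned media and 11.2 FPKM in control (0.043), then Pinx1 (0.048) and Ttll4 (0.060). Nearest to Id3 were Gadd45b, a stress-induced gene, at 119 FPKM with resveratrol, 58.2 FPKM in conditioned media and 36.3 FPKM in control (0.077), then Glul, glutamine synthetase (0.13), and Aldh6a1 (0.15). With 3 libraries a course has only 2 differences, so likeness says little beyond the order and size of 3 values.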

How the data were processed

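Per the submitters' processing notes, the build was mm10 and the tools were Cuffdiff 2.2.1.3, Cufflinks 2.2.1.0, TopHat2 2.1.0 with Bowtie, Trim Galore 0.4.3.1 and FastQC 0.69. The sources used here give no annotation, strand setting or library scaling. FPKM were computed by the authors. Deposited log2 fold changes are the authors' ratios of FPKM without a pseudocount, and Cuffdiff's test statistic (a score), p-values and q-values are deposited as the authors' own. Depth is unknown, because FPKM hold no counts. Starts in the table count from 0 and were raised by 1.

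Libraries were grouped by treatment label. Ratios were computed as log2((FPKM + 1)/(FPKM + 1)) with Python 3.11.15 and pandas 2.3.3, over 11858 loci with a mean of 1 FPKM or more, and a size rule of 1 stood in for a test. Id transcripts were compared with GENCODE M21 by blastn 2.17.0. Named were the 10 genes, list genes past the size rule in any comparison, and the 3 nearest to each of Id1, Id2 and Id3. The 3 most abundant genes of each of the 9 lists of Id partners and BMP pathway genes were also named. Naming the 3 most abundant was planned for the marker lists too, but was followed there only in part. Des, Tnnt3 and Cd34, among others, were left out. Bmp3, Gdf2, Pax7, Ckm, Myh3, Msx1, Thy1 and the markers listed at 0 fall outside these rules and were named after their values were seen. Mymk stands in the table as Tmem8c. The members and lists were chosen with earlier results of these data known. Alternatives were pseudocounts of 0.1 and 5, TPM, centring, a mean of 5 FPKM, no filter, a size of 0.5 and the authors' calls. Scaling FPKM to equal library totals was added after seeing the data, because TPM also makes a pseudocount of 1 about 3 times heavier.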

Additional observations from a re-analysis of the deposited data

How the results depend on the processing

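With 1 library per group there is no replicate to leave out, and depth sets an unknown limit on low values. No paired analysis was possible because each group is 1 library and the labels give no replicate numbers. The count of members past the size rule (1 for conditioned media over control, 3 for resveratrol over conditioned media, 1 for resveratrol over control) became 0 and 0 in the first 2 of these with a pseudocount of 5, where every ratio shrinks by construction. It was 2 for resveratrol over control with a pseudocount of 0.1. At a size of 0.5 it was 2 for conditioned media over control and 5 for resveratrol over control, and 3 and 6 by the authors' deposited calls. Scaling to equal library totals, chosen after seeing the data, gave 0 for conditioned media over control (Id2 at -0.85), 3 for resveratrol over conditioned media and 2 for resveratrol over control (Id1 at 1.10, with Id3). TPM gave 0 for conditioned media over control and 2 for resveratrol over control, but it changes 2 choices at once: values become about 3 times smaller, so a pseudocount of 1 weighs more. Bmp4 and Bmpr1b were past the rule for resveratrol over conditioned media with equal totals and not in TPM. The members' median was 0.34 and 0.29 in the comparisons with control under equal totals, and 0.30 and 0.26 in TPM; equal totals raised the median of all loci by 0.18 in both. No member past the rule changed direction under any alternative listed. Over all loci, 324 were past the rule for conditioned media over control, 771 for resveratrol over conditioned media and 1049 for resveratrol over control. These counts became 599 and 1183 (the first 2) with a pseudocount of 0.1, then 94, 243 and 390 with one of 5, then 176, 373 and 573 in TPM with its heavier pseudocount (413, 785 and 1073 with equal totals), and 188 and 493 (the first 2) at a mean of 5 FPKM. The share of higher loci among them, 72.5% for conditioned media over control and 40.7% for resveratrol over control, became 87.9% and 60.4% with equal totals, 83.0% and 61.8% in TPM, and the first was 59.6% with a pseudocount of 5. Other causes of these moves were not tested.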
